A study of Caenorhabditis elegans with 24 samples.

Results

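Antisense small RNAs of Caenorhabditis elegans mutant in hrde-1, meg-3 and meg-4 (written hrde-1; meg-3 meg-4, the triple mutant) were compared with those of wild type, to ask what stayed altered when HRDE-1 was missing as well and what was altered in the triple mutant alone. The comparison rests on 4 of the 24 libraries of the study, 2 triple mutant and 2 wild type, chosen by their genotype labels. The 2 libraries of the meg-3 meg-4 double mutant were set beside them, and 18 libraries of wild-type animals descended from outcrossed meg-3 meg-4 animals served as a range. Every triple mutant carried the meg-3 and meg-4 mutations as well as the hrde-1 mutation. The alleles are not named in the labels, and hrde-1 single mutants were not analysed here. Library titles name a single strain per genotype: N2 for wild type, JH3225 for meg-3 meg-4 and YY1512 for the triple mutant. Other differences between these strains cannot be told apart from the mutations. All libraries were made from whole young adults, so fewer cells of a type and less RNA per cell cannot be told apart. Of the 46726 features in the deposited table, 8869 had at least 10 normalized counts in at least 2 of the 24 libraries and were tested. A normalized count is the number of reads on a feature divided by a size factor of its library. A feature is described as called when its adjusted p was below 0.05 in limma, fitted on log2(normalized count + 5), and log2 changes are on that scale. Values after ± are standard errors from that fit, which pools the spread of all 12 groups and not only of those compared.

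The disordered proteins MEG-3 and MEG-4 build germ granules in the embryo, where much of the small RNA machinery gathers. Secondary siRNAs of the worm germline are copied from messenger RNA templates by RNA-dependent RNA polymerases, so they lie antisense to the gene they target, and they are loaded onto worm-specific Argonautes. HRDE-1 is the nuclear Argonaute of this group in the germline: it binds such siRNAs, silences the matching genes in the nucleus through the NRDE factors, and is needed for silencing to be inherited over generations.

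Recovered reads numbered 2926820 and 2884130 in wild type, against 2100200 and 2058156 in meg-3 meg-4 and 2044838 and 2263310 in the triple mutant. A single read equalled 0.579 and 0.584 normalized counts in wild type, and 0.900 and 0.788 in the triple mutant. Non-coding features opposite microRNA genes held more reads than the microRNA genes in 26 of 28 pairs, so the table counts reads antisense to the annotated gene. A pair of these features, which hold mir-71 and mir-80 reads, took 15.0% and 14.4% of the wild-type libraries, 26% and 20% of the meg-3 meg-4 libraries and 19.8% and 19% of the triple mutant libraries. How far this share moved other values was not tested.

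The genes named in the genotypes were examined first, as a check of the labels. Values for meg-3 were 42.8 and 64.2 in wild type, against 7.74 and 7.86 in meg-3 meg-4 and 14.4 and 4.73 in the triple mutant, and those for meg-4 were 55 and 74.2 in wild type, against 12.2 and 3.93 in meg-3 meg-4 and 0.90 and 4.73 in the triple mutant. All 4 libraries of both mutants lay below both wild-type libraries and below every descendant library for each of these genes. Normalized counts antisense to hrde-1 itself were 1351 and 1359.9 in wild type, against 1164 and 1115 in meg-3 meg-4 and 629 and 599.9 in the triple mutant, and 1299.6 to 1982 in the descendants. The triple mutant libraries were the lowest of all 24, and the change against wild type was −1.14 ± 0.13, limma adjusted p = 1.59e-06. How much of each gene the mutations remove was not given in the sources used here, so these values check the labels in part.

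In the triple mutant 517 features were called higher than in wild type (5.83% of those tested) and 1101 were called lower (12.4%), 1618 in all (18.2%). Of these, 276 were higher and 831 lower by at least 1 on the log2 scale. The share of called features that were lower was 68.0%. It was 77.8% with libraries scaled to equal totals and 51.5% after quantile normalization, so the balance of losses and gains depends on the scaling. The median change of all features was −0.02, −0.11 with equal totals and 0.11 after quantile normalization. None of the features called here was called in the other direction under any setting tried. The number called higher fell whichever library of wild type or of the triple mutant was left out, and so did the number called lower. Such fits leave a group with a single library, so they cannot show that calls rested on the library removed.

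**Figure D1:**
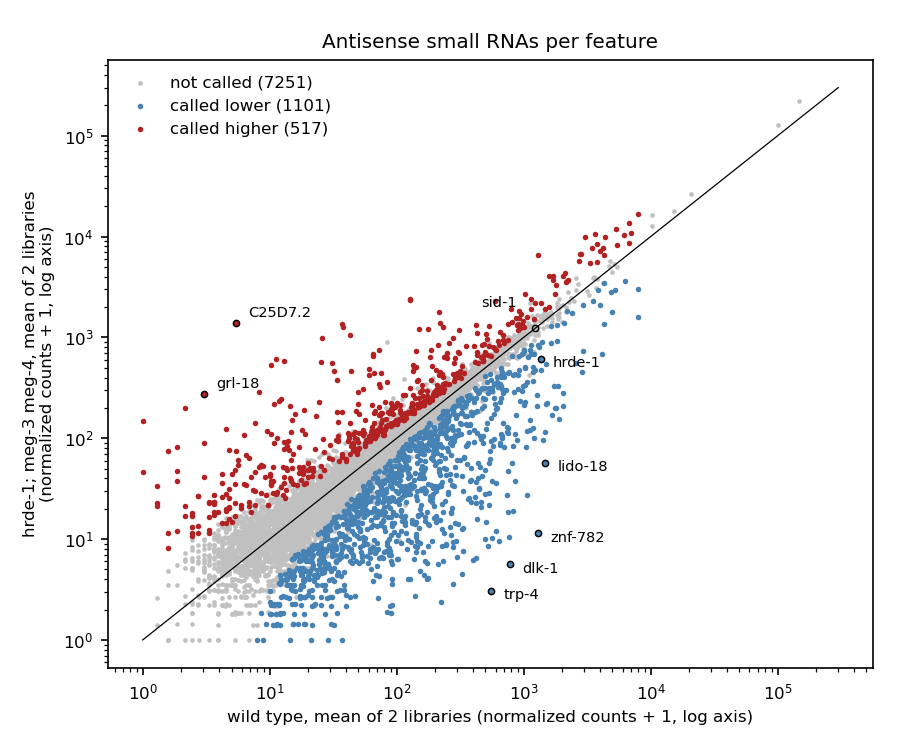
Each point is 1 of 8869 features, placed by its mean normalized count plus 1 in 2 wild-type libraries (x axis, log scale) and in 2 hrde-1; meg-3 meg-4 libraries (y axis, log scale). Red points were called higher (517), blue points lower (1101) and grey points were not called (7251); C25D7.2 and grl-18 stand far above the line of equal levels, znf-782 and trp-4 far below it, and sid-1 on it.

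The double mutant was compared with the same wild-type libraries, so the changes of both mutants share their control and are given side by side. In meg-3 meg-4, 734 features were called higher (8.28%) and 1564 lower (17.6%), 2298 in all (25.9%). Between the mutants, 938 features were higher in the triple mutant (10.6%) and 765 lower (8.63%), 1703 in all (19.2%). Each feature was then placed by its calls in all 3 comparisons. There were 898 features called the same way against wild type in both mutants, 360 called in the triple mutant alone and set apart from the double mutant, 689 called in the double mutant and back towards wild type in the triple mutant, and 110 called in opposite directions in the mutants. A further 250 were called in the triple mutant but neither in the double mutant nor between the mutants.

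**Figure D2:**
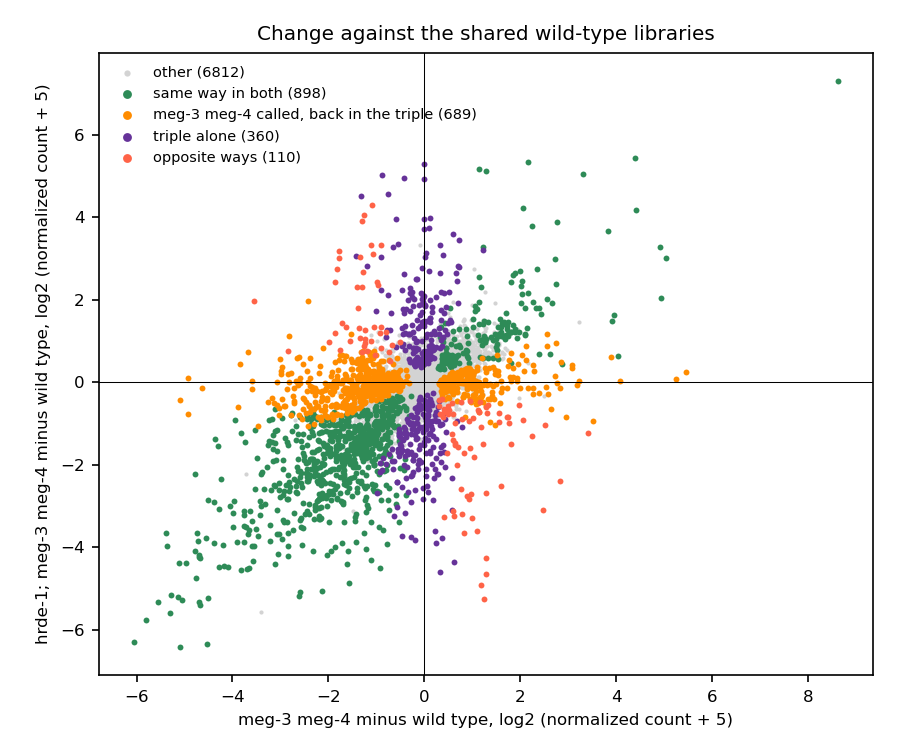
Each point is 1 of 8869 features, with its log2 change in meg-3 meg-4 against wild type on the x axis and in hrde-1; meg-3 meg-4 against the same wild-type libraries on the y axis. Green features (898) were called the same way in both, orange ones (689) lie near 0 on the y axis, purple ones (360) near 0 on the x axis, and red ones (110) in the upper left and lower right corners; because the control is shared, part of the slope along the diagonal is built in.

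Most of what stayed altered without HRDE-1 was loss. Of the 898 features called the same way in both mutants, 718 were lower and 180 higher. The 718 made up 65.2% of the features called lower in the triple mutant and 45.9% of those called lower in the double mutant, whereas the 180 made up 34.8% and 24.5% of the higher calls. The median change of the lower features was −1.70 in the triple mutant and −1.67 in meg-3 meg-4, and that of the higher features was 1.06 and 1.21. These shares are a description, since deviations of the shared wild-type libraries enter both comparisons. For 471 of the 718 and 135 of the 180 the mutants were not called apart. The triple mutant was further from wild type than the double mutant in 140 of the lower and 18 of the higher features, and nearer in 107 and 27.

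The 6 features with the largest shared loss included genes of neurons and of transcription. Values for znf-782, a zinc finger gene on chromosome IV, were 1264 and 1335 in wild type, against 37.6 and 29.5 in meg-3 meg-4 and 9.0 and 11.8 in the triple mutant. Both mutants lay far below wild type, and the triple mutant lay below the double mutant (log2 change −6.41 ± 0.18, limma adjusted p = 1.42e-15 against wild type, and −1.32 between the mutants, limma adjusted p = 1.17e-05). The descendant libraries ranged from 313 to 1296, above both mutants.

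For dlk-1 (chromosome I), a kinase that acts in synapse formation and axon regrowth, the values were 849.7 and 705 in wild type, against 33.2 and 24.5 in meg-3 meg-4 and 4.5 and 4.73 in the triple mutant. Here too the triple mutant fell further than the double mutant (log2 change −6.34 ± 0.13, limma adjusted p = 4.73e-17; between the mutants −1.80, limma adjusted p = 2.83e-09). For trp-4 (chromosome I), a mechanosensory ion channel of neurons, they were 548 and 562 in wild type, against 2.21 and 4.91 in meg-3 meg-4 and 1.8 and 2.37 in the triple mutant. The mutant libraries overlapped each other and sat at a few reads each (log2 change −6.30 ± 0.20, limma adjusted p = 7.59e-15).

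The Krüppel-like transcription factor gene klf-1 (chromosome III) had 726 and 803 in wild type, against 11.06 and 6.87 in meg-3 meg-4 and 12.6 and 6.31 in the triple mutant, a log2 change of −5.77 in the triple mutant and −5.80 in meg-3 meg-4. The kinase gene ckk-1 (chromosome III), whose product activates calcium-dependent kinases, had 614 and 671 in wild type, against 12.2 and 10.8 in meg-3 meg-4 and 6.3 and 11 in the triple mutant, and its change was −5.59 and −5.30. In both genes the libraries of the mutants overlapped and no wild-type library came near them. The last of the 6, hpo-39 on chromosome V, had 528 and 517 in wild type, against 14.4 and 16.7 in meg-3 meg-4 and 7.2 and 7.88 in the triple mutant; it overlaps Y61A9LA.3 on the opposite strand.

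The features jip-1, ndx-2, Y38F2AR.12 and cdk-14 completed the 10 largest losses in the triple mutant. The gene for the kinase scaffold jip-1 (chromosome II) went from 258 and 392 to 6.3 and 0.788, the Nudix hydrolase gene ndx-2 (chromosome V) from 278 and 522 to 7.2 and 3.15, and Y38F2AR.12 (chromosome IV) from 482 and 363 to 6.3 and 4.73. All 3 were called lower in the double mutant as well. The cyclin-dependent kinase gene cdk-14 (chromosome I) had 545 and 582 in wild type, against 65.3 and 36.3 in meg-3 meg-4 and 17.1 and 1.58 in the triple mutant. Its change of −5.56 ± 1.29, limma adjusted p = 0.00365, was no longer called without triple mutant replicate 2, where the adjusted p was 0.0642, within a range from 8.00e-07 over the 17 settings tried. It adjoins ZC123.1 on the opposite strand, which was called lower too.

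Among the features that stayed higher, the pseudogene C25D7.2 on chromosome V stood apart. Its values were 1.16 and 7.59 in wild type, against 3655 and 3298 in meg-3 meg-4 and 1390.4 and 1377 in the triple mutant, and 129 to 1220.2 in the descendants. Wild type held a few reads, the triple mutant lay above every descendant library, and the double mutant lay higher still (log2 change 7.30 ± 0.38, limma adjusted p = 1.77e-11 in the triple mutant, 8.63 in meg-3 meg-4, and −1.32 between them, limma adjusted p = 0.0187).

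The other 5 were as high or higher in the triple mutant than in the double. The F-box gene fbxa-125 (chromosome I) had 43.4 and 5.84 in wild type, against 544 and 413 in meg-3 meg-4 and 1073 and 907 in the triple mutant, with the wild-type libraries far apart from each other. The sugar transferase gene ugt-22 (chromosome IV) had 0.579 and 1.75 in wild type, against 55.3 and 57 in meg-3 meg-4 and 192 and 203 in the triple mutant, the wild-type values being 1 and 3 reads. The mutants were not called apart for fbxa-125 (limma adjusted p = 0.0883), and were narrowly called apart for ugt-22 (limma adjusted p = 0.0497).

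For the short-chain dehydrogenase gene dhs-9 (chromosome III) normalized counts of 9.26 and 9.34 in wild type, against 29.9 and 23.6 in meg-3 meg-4 and 396 and 655 in the triple mutant were found. Most of its rise was therefore seen in the triple mutant, with a log2 change of 5.17 against 1.14 in meg-3 meg-4 and 4.03 between the mutants (limma adjusted p = 1.93e-09). F29D10.3 (chromosome I) and F41C3.8 (chromosome II) had the same order, with 60.8 and 64.8 in meg-3 meg-4 and 704 and 523 in the triple mutant for the first, and 43.1 and 30.4 and 603 and 561 for the second. F41C3.8 lies within F10G7.10, which is on the opposite strand and was called higher too.

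**Figure D3:**
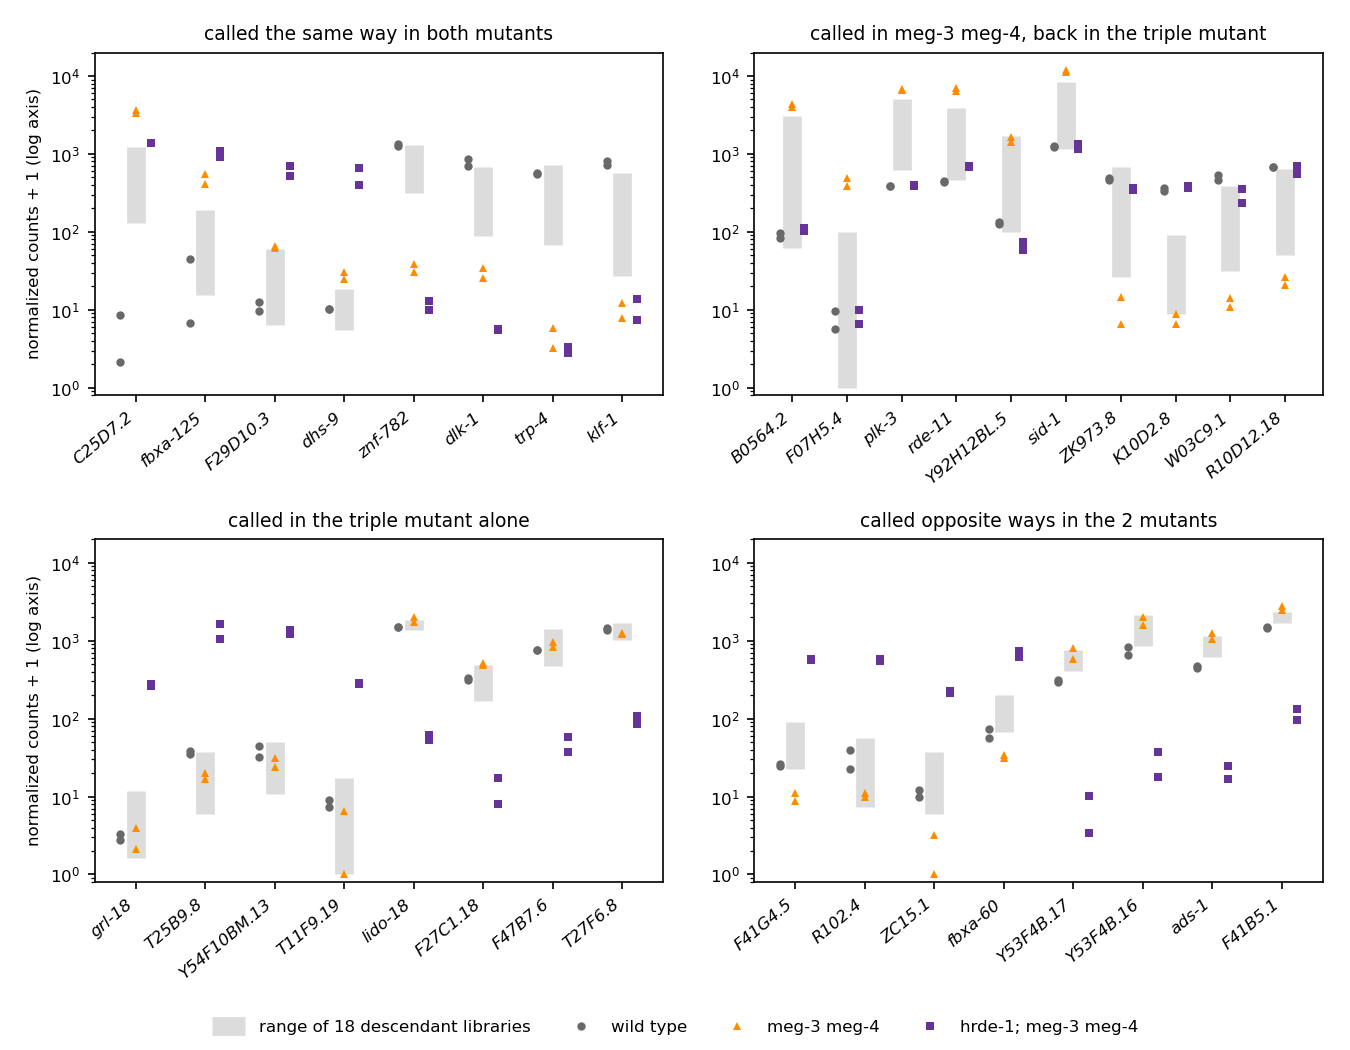
Normalized counts plus 1 (log axis) of features from each of 4 classes, 10 in the second and 8 in the others, with 2 wild-type libraries (circles), 2 meg-3 meg-4 libraries (triangles), 2 hrde-1; meg-3 meg-4 libraries (squares) and the range of 18 descendant libraries (grey bars). Squares and triangles leave the circles on the same side in the first panel, but for dhs-9 and F29D10.3 the triangles stay nearer to the circles than the squares do. In the second panel triangles stand far from the circles, with squares nearer to them. Squares stand far from both in the third, and squares and triangles leave in opposite directions in the fourth.

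The features that were back near wild type comprised 227 that were higher in meg-3 meg-4 and 462 that were lower. Their median change in the double mutant was 0.90 and −1.29, and in the triple mutant −0.01 and −0.09. The medians near 0 follow from how the class is defined, and a missing call does not show that the triple mutant equalled wild type. In place of 689 the count was 418 without meg-3 meg-4 replicate 1 and 456 without its replicate 2. Besides these, 601 features were called in the double mutant alone, without a call between the mutants.

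Among the genes that had gained siRNAs in meg-3 meg-4 were sid-1 and rde-11, which both act in RNA interference. For sid-1 (chromosome V), a channel that lets double-stranded RNA into cells, the values were 1221 and 1245 in wild type, against 11889 and 11329 in meg-3 meg-4 and 1333 and 1171 in the triple mutant. The triple mutant libraries fell on either side of the wild-type pair, and the change was 0.02 ± 0.13 against wild type and −3.21 against meg-3 meg-4 (limma adjusted p = 0.954 and 4.68e-13). The descendants spread from 1145 to 8449.7.

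For rde-11 (chromosome IV), a factor that amplifies siRNAs from foreign double-stranded RNA, the values were 453 and 437 in wild type, against 6911 and 6404 in meg-3 meg-4 and 694 and 678 in the triple mutant. Both triple mutant libraries lay above both wild-type libraries, and the change of 0.62 ± 0.28, limma adjusted p = 0.151, was not called. It was called after quantile normalization and in a fit of the 3 genotypes alone, with adjusted p between 7.64e-05 and 0.375 over the settings tried. Against meg-3 meg-4 the change was −3.27. Its neighbour B0564.2 had 82.2 and 96.9 in wild type, against 4362 and 3973 in meg-3 meg-4 and 111 and 102 in the triple mutant, and went with it.

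The polo-like kinase gene plk-3 (chromosome IV) had 391 and 385 in wild type, against 6811 and 6535 in meg-3 meg-4 and 397 and 389 in the triple mutant, and the pseudogene F07H5.4 (chromosome II) had 8.68 and 4.67 in wild type, against 383 and 489 in meg-3 meg-4 and 9.0 and 5.52 in the triple mutant. In both, the triple mutant overlapped wild type while the double mutant stood far above. Y92H12BL.5 (chromosome I) had 123 and 132 in wild type, against 1634 and 1423 in meg-3 meg-4 and 72 and 57.5 in the triple mutant, so the triple mutant lay below wild type and below every descendant library, without a call (−0.93 ± 0.50, limma adjusted p = 0.241); in a fit of the 3 genotypes alone it was called lower (adjusted p over the settings from 8.83e-05 to 0.544).

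Large losses of the double mutant were also missing from the calls of the triple mutant. K10D2.8 (chromosome III) had 361 and 338 in wild type, against 5.53 and 7.86 in meg-3 meg-4 and 368 and 385 in the triple mutant, with every descendant library below both wild type and the triple mutant (7.9 to 91.2). ZK973.8 (chromosome I) had 495 and 459 in wild type, against 5.53 and 13.7 in meg-3 meg-4 and 369 and 341 in the triple mutant, and the non-coding feature R10D12.18 (chromosome V) had 669 and 684 in wild type, against 25.4 and 19.6 in meg-3 meg-4 and 693 and 549 in the triple mutant. The peroxisome import gene prx-13 (chromosome II) had 672 and 749 in wild type, against 44.2 and 45.2 in meg-3 meg-4 and 959 and 955 in the triple mutant, so that the triple mutant was above all other libraries (0.43 ± 0.31, limma adjusted p = 0.419); this too was called in a fit of the 3 genotypes alone, with adjusted p from 0.00368 to 0.708 over the settings.

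W03C9.1 (chromosome II) and the neuropeptide receptor gene npr-11 (chromosome X) came back less fully. W03C9.1 had 536 and 459 in wild type, against 13.3 and 9.82 in meg-3 meg-4 and 357 and 235 in the triple mutant. The gene npr-11 had 118 and 92.8 in wild type, against 1.11 and 3.93 in meg-3 meg-4 and 78.3 and 56.8 in the triple mutant. Neither was called against wild type (limma adjusted p = 0.11 and 0.256), W03C9.1 being called lower in the fit of the 3 genotypes alone (adjusted p over the settings from 0.00889 to 0.552).

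The features called in the triple mutant alone numbered 175 higher and 185 lower, with median changes of 1.36 and −1.34 in the triple mutant and −0.04 and −0.08 in the double. Because the class requires no call in the double mutant, small medians there follow from its definition. A missing call does not show that the double mutant equalled wild type. The triple mutant libraries lay outside the range of all 22 other libraries in 165 of the 175 and in 169 of the 185. This follows in part from the class, which compares the triple mutant with 4 of the 22. Among the features lower in both mutants this was so for 220 of 718, among those higher in both for 43 of 180, and among all features for 14.6%.

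Gains called in the triple mutant alone started from almost nothing in several genes. For grl-18 (chromosome V), a gene of the Hedgehog-related ground-like family, the values were 2.32 and 1.75 in wild type, against 1.11 and 2.95 in meg-3 meg-4 and 279 and 263 in the triple mutant. No other library of the study exceeded 10.9 (log2 change 5.30 ± 0.40, limma adjusted p = 3.59e-09). For F16B4.4 (chromosome V), no read was found in either wild-type or either meg-3 meg-4 library, and the triple mutant libraries held 166 and 132. Against the level that 3 reads give in a wild-type library, the triple mutant mean was at least 84.9-fold higher. The same bound for pqn-24, the other feature called higher with no wild-type read, was 25.7-fold, from 58.5 and 31.5. In grl-18, F16B4.4 and pqn-24 the triple mutant libraries alone were enough to meet the filter on normalized counts. Such features can enter the test through the libraries in which they are high, so their gap to the other libraries is in part a matter of selection.

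T25B9.8 (chromosome IV) had 34.1 and 37.4 in wild type, against 18.8 and 15.7 in meg-3 meg-4 and 1058 and 1633 in the triple mutant, and Y54F10BM.13 (chromosome III) had 30.7 and 43.2 in wild type, against 29.9 and 22.6 in meg-3 meg-4 and 1204 and 1354 in the triple mutant. The pseudogene T11F9.19 (chromosome V) had 8.1 and 6.42 in wild type, against 5.53 and 0 in meg-3 meg-4 and 288 and 279.9 in the triple mutant, and R10E4.3 (chromosome III) had 14.5 and 8.17 in wild type, against 11.06 and 10.8 in meg-3 meg-4 and 222 and 264 in the triple mutant. In these 4 the triple mutant libraries were above all 22 others and neither of the remaining genotypes differed from the other by a call.

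Some gains lay side by side. The molybdenum cofactor gene moc-2 and W01A11.7 are neighbours on the same strand of chromosome V. The first had 14.5 and 7.01 in wild type, against 6.64 and 3.93 in meg-3 meg-4 and 217 and 249 in the triple mutant, and the second had 38.8 and 23.4 in wild type, against 54.2 and 15.7 in meg-3 meg-4 and 471 and 449 in the triple mutant. The gene hpo-38 (chromosome III) had 46.9 and 36.2 in wild type, against 14.4 and 12.8 in meg-3 meg-4 and 1122 and 988 in the triple mutant; it shares its strand and a few bases with the kinesin gene klp-20, which was called higher in the triple mutant too (log2 change 2.75) and lower in the double (−1.83). Reads in the shared bases cannot be assigned to one of them.

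Losses called in the triple mutant alone were led by lido-18 (chromosome III), with 1481 and 1479.6 in wild type, against 2004 and 1709.6 in meg-3 meg-4 and 60.3 and 52 in the triple mutant. The triple mutant held far fewer than any of the 22 other libraries, and the descendants ranged from 1377 to 1844 (log2 change −4.60 ± 0.12, limma adjusted p = 8.96e-16). T27F6.8 (chromosome I) had 1362 and 1457 in wild type, against 1217 and 1251 in meg-3 meg-4 and 106 and 85.1 in the triple mutant, and the glutathione peroxidase gene gpx-8 (chromosome I) had 1016 and 1056 in wild type, against 1148 and 1275 in meg-3 meg-4 and 89.1 and 73.3 in the triple mutant. In gpx-8 the double mutant was above wild type without a call (0.22, limma adjusted p = 0.118), and its neighbour F55A3.6 was also called lower in the triple mutant alone (−1.66).

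The pseudogene F47B7.6 on chromosome X had 750.1 and 749.7 in wild type, against 971 and 816 in meg-3 meg-4 and 36 and 56.8 in the triple mutant, and the globin gene glb-14 on chromosome V had 372 and 374 in wild type, against 314 and 231 in meg-3 meg-4 and 30.6 and 18.1 in the triple mutant. The gene glb-14 overlaps prde-1 on the opposite strand. Y102A5C.36 (chromosome V) had 876 and 741 in wild type, against 772 and 576 in meg-3 meg-4 and 59.4 and 51.2 in the triple mutant, with descendants from 274 to 1219. In each of these 3 the triple mutant libraries were below all others. Non-coding features showed the same, with F27C1.18 (chromosome I) going from 316 and 331 to 16.2 and 7.1 and Y102A5D.22 (chromosome V) from 137 and 135 to 4.5 and 6.31.

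The 110 features called in opposite directions comprised 66 higher in meg-3 meg-4 and lower in the triple mutant, with medians of 0.95 and −1.16, and 44 of the reverse, with medians of −1.25 and 1.32. Those described next were chosen after their values were seen. Most were taken for the size of their change in the triple mutant, within the limits on level and overlap given below. The gene dnj-24 was picked outside this ranking, since F41G4.7 of the same class fell further (−3.25). The neighbours fbxa-67 and F41G4.7 are given for their position. The DnaJ-domain gene dnj-24 (chromosome III) had 276 and 300.1 in wild type, against 2210.2 and 1928 in meg-3 meg-4 and 58.5 and 43.4 in the triple mutant, so its change was 2.82 in the double mutant and −2.40 in the triple mutant. The gene ads-1 (chromosome III), which encodes an enzyme of ether lipid synthesis, had 446 and 478 in wild type, against 1242 and 1036 in meg-3 meg-4 and 23.4 and 15.8 in the triple mutant. Neither mutant overlapped wild type or the other mutant in either gene.

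The neighbours Y53F4B.16, a pseudogene, and Y53F4B.17 on chromosome II lie on opposite strands and changed alike. Y53F4B.16 had 644 and 839 in wild type, against 2027 and 1597 in meg-3 meg-4 and 36 and 16.6 in the triple mutant, and Y53F4B.17 had 289 and 309 in wild type, against 793 and 587 in meg-3 meg-4 and 9.0 and 2.37 in the triple mutant. The pseudogene C06C3.5 (chromosome II) had 1876 and 1939.7 in wild type, against 4185 and 4036 in meg-3 meg-4 and 117 and 194 in the triple mutant, and F41B5.1 (chromosome V) had 1464 and 1485 in wild type, against 2778 and 2474 in meg-3 meg-4 and 131 and 96.2 in the triple mutant. The largest loss of this kind belonged to a feature that no symbol was matched to, WBGene00044400, with 562 and 643 in wild type, against 1528 and 1331 in meg-3 meg-4 and 13.5 and 8.67 in the triple mutant (log2 change −5.25 in the triple mutant).

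In the reverse direction, R102.4 (chromosome IV) had 38.8 and 21.6 in wild type, against 9.96 and 8.84 in meg-3 meg-4 and 576 and 542 in the triple mutant, and R12B2.2 (chromosome III) had 67.7 and 74.2 in wild type, against 27.7 and 32.4 in meg-3 meg-4 and 701 and 798 in the triple mutant. The F-box gene fbxa-60 (chromosome III) had 71.8 and 56.1 in wild type, against 29.9 and 33.4 in meg-3 meg-4 and 737 and 621 in the triple mutant, whereas its neighbour on the same strand, fbxa-67, had 1004 and 918 in wild type, against 1364 and 1310.0 in meg-3 meg-4 and 296 and 286 in the triple mutant. The pseudogene F41G4.5 (chromosome X) had 25.5 and 23.4 in wild type, against 9.96 and 7.86 in meg-3 meg-4 and 574 and 561 in the triple mutant, and its neighbour F41G4.7 fell in the triple mutant by a log2 change of −3.25. Neighbouring features thus moved in opposite directions in both of these places. ZC15.1 (chromosome V) had 11 and 8.76 in wild type, against 2.21 and 0 in meg-3 meg-4 and 225 and 209 in the triple mutant, and K11H3.2 (chromosome III) had 92.6 and 25.7 in wild type, against 13.3 and 8.84 in meg-3 meg-4 and 456 and 519.5 in the triple mutant, with the wild-type libraries of K11H3.2 far apart.

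Gene lists were described by how many measured members were called in the triple mutant, read against 5.83% higher and 12.4% lower among all features. Some list members named below were picked after their values were seen. Among genes of nuclear RNAi and heritable silencing, 1 of 19 was called higher and 4 lower. The gene nrde-2, an HRDE-1 partner in the nucleus, had 983 and 985 in wild type, against 1042 and 1058 in meg-3 meg-4 and 1433 and 1482 in the triple mutant, and the triple mutant libraries were above all 22 others (log2 change 0.56 ± 0.10, limma adjusted p = 2.60e-04). Besides hrde-1, hpl-1, which encodes a heterochromatin protein, fell by a log2 change of −1.06 (130.2 and 154 in wild type, against 45.4 and 51.1 in meg-3 meg-4 and 62.1 and 68.6 in the triple mutant). Smaller changes were called for the splicing helicase gene emb-4 (−0.51) and the histone demethylase gene spr-5 (−0.41). The emb-4 call was lost without wild-type replicate 2 or without triple mutant replicate 2 (adjusted p over the settings from 0.00227 to 0.0802), and 2 to 4 of the list were called lower when single libraries were left out.

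A list of loci linked to nuclear RNAi held 6 measured features, but its count of lower calls cannot be read as a result: lido-18 and dnj-24 were put in it with their values in these libraries known, and of the remaining 4, all called lower under every setting tried, 2 share the symbol F07B7.2. C38D9.2 had 1067 and 947 in wild type, against 1211 and 1202 in meg-3 meg-4 and 207 and 214 in the triple mutant, and bath-45 had 5279.8 and 5231 in wild type, against 7083 and 6632 in meg-3 meg-4 and 2982 and 2878 in the triple mutant. Both were at or above wild type in the double mutant and below it in the triple mutant (log2 change −2.23 and −0.84). A pair of features that share the symbol F07B7.2 differed from these, since both were low in both mutants, with 745 and 722 in wild type, against 87.4 and 82.5 in meg-3 meg-4 and 108 and 123 in the triple mutant for one. How reads that match both copies were counted was not given in the sources used here.

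Antisense reads on genes of the small RNA machinery were rarely called. Of 19 RNAi factors 0 were called higher and 1 lower, of 15 mutator and RNA-dependent RNA polymerase genes 0 and 1, of 17 Argonautes other than hrde-1 1 and 0, and of 15 piRNA pathway genes 0 and 0. The polymerase homologue rrf-2 (chromosome I) had 223 and 224 in wild type, against 269 and 293 in meg-3 meg-4 and 81 and 52 in the triple mutant, and the triple mutant was below all 22 other libraries (log2 change −1.71 ± 0.22, limma adjusted p = 6.90e-06). The germline Argonaute gene wago-1 rose from 298 and 279.7 to 387 and 404 (log2 change 0.45 ± 0.11, limma adjusted p = 0.0050), and rsd-2, which acts in the spread of RNAi, fell from 96.7 and 94.6 to 51.3 and 69.4 (−0.64 ± 0.21, limma adjusted p = 0.044). Both calls were lost under several settings, with adjusted p up to 0.173 and 0.362 and down to 2.48e-04 and 0.0131; equal library totals ended the call of wago-1, and the libraries whose removal ended calls were wild-type replicate 2 and triple mutant replicate 2 for wago-1, and each single library other than triple mutant replicate 2 for rsd-2.

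Of 27 germ granule genes 3 were called higher and 3 lower, the lower ones being meg-3, meg-4 and simr-1 (−0.31). The gene mex-5, which encodes a zinc finger protein of embryonic polarity, rose from 226 and 238 to 424 and 378 and was above all 22 other libraries (log2 change 0.77 ± 0.15, limma adjusted p = 7.22e-04). The calls of deps-1, a P granule gene with a change of 0.50, were lost without wild-type replicate 1 or without either triple mutant library, and with equal library totals (adjusted p over the settings from 0.00194 to 0.244). Leaving out single libraries gave 1 to 3 higher and 2 to 3 lower in this list, equal totals gave 1 and 3, and quantile normalization gave 8 and 2.

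Among targets of the ERGO-1 pathway of the embryo and oocyte, 2 of 16 were called higher and 3 lower. E01G4.5 had 1952 and 1509 in wild type, against 319.7 and 407 in meg-3 meg-4 and 252 and 406 in the triple mutant, a loss shared by both mutants (log2 change −2.40 and −2.24) that was not called without wild-type replicate 1 or triple mutant replicate 1 (adjusted p over the settings from 1.78e-06 to 0.105). H16D19.4 had 82.2 and 89.9 in wild type, against 54.2 and 59.9 in meg-3 meg-4 and 38.7 and 38.6 in the triple mutant, with the triple mutant below all other libraries (−1.06 ± 0.15, limma adjusted p = 2.94e-05). Without single libraries, 0 to 2 of the list were called higher and 1 to 3 lower, the lowest counts coming without wild-type replicate 1 or triple mutant replicate 1. With equal totals 0 were higher and 4 lower, after quantile normalization 4 and 4, and in a fit of the 3 genotypes alone 2 and 8.

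F-box genes, a large and fast-changing family of ubiquitin ligase adaptors, had 52 of the measured members called lower in the triple mutant (43.7%) and 7 called higher (5.88%), with a median change of −0.67. In meg-3 meg-4, 68 were lower and 7 higher, and the median was −1.04. Without single libraries the lower count ran from 39 to 52. The shared losses included fbxa-184, with 159.7 and 166 in wild type, against 7.74 and 10.8 in meg-3 meg-4 and 3.6 and 3.15 in the triple mutant, and fbxa-166, with 118.7 and 134 in wild type, against 45.4 and 57.9 in meg-3 meg-4 and 4.5 and 1.58 in the triple mutant. The triple mutant was lower than the double for both, and also for fbxa-115, with 149 and 170.5 in wild type, against 55.3 and 57 in meg-3 meg-4 and 8.1 and 4.73 in the triple mutant.

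Not every F-box gene followed. The gene fbxa-10 had 211 and 217 in wild type, against 198 and 235 in meg-3 meg-4 and 1815 and 1741 in the triple mutant, a gain of the triple mutant alone (log2 change 3.03 ± 0.12, limma adjusted p = 1.50e-13). The gene fbxb-22 had 175 and 189 in wild type, against 23.2 and 14.7 in meg-3 meg-4 and 196 and 219 in the triple mutant, and was back at wild type. Of the measured members, 38 were called the same way in both mutants, 9 in the triple mutant alone, 16 were back and 7 moved in opposite directions. Many F-box genes resemble each other, and how reads shared by such copies were counted was not given in the sources used here.

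**Figure D4:**
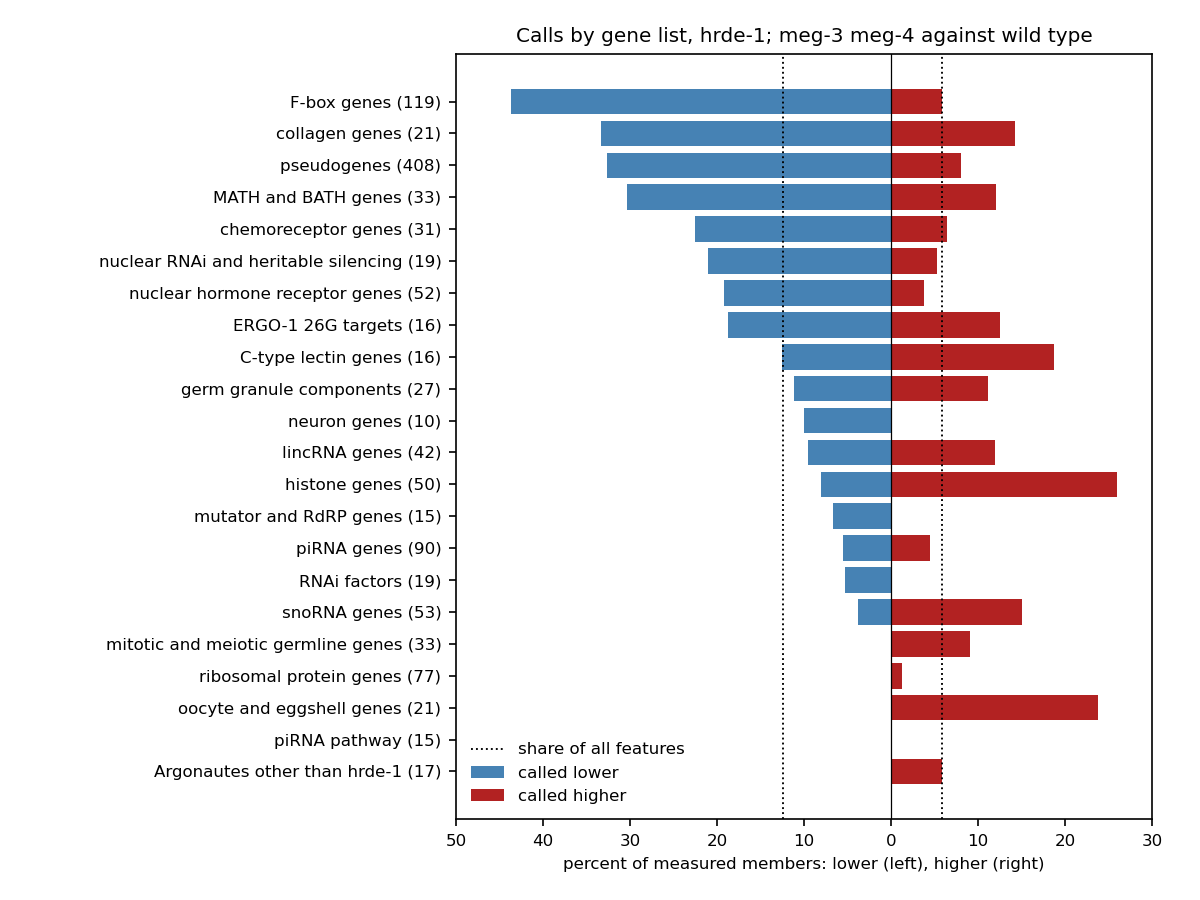
Percent of the measured members of each gene list (number in brackets) called lower (blue, left) and higher (red, right) in hrde-1; meg-3 meg-4 against wild type, for lists with at least 10 measured members. Dotted lines mark the share of all 8869 features (12.4% lower, 5.83% higher); F-box genes (43.7%) and pseudogenes (32.6%) reach far past the lower line.

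Pseudogenes had 133 of 408 called lower (32.6%) and 33 called higher (8.09%), the higher count being 21 with equal totals. In meg-3 meg-4, 117 were called lower (28.7%) and 50 higher (12.3%), against 17.6% and 8.28% of all features. Of the 408 pseudogenes 80 were called the same way in both mutants and 49 in the triple mutant alone. A further 49 were back and 15 moved in opposite directions. Y38H6C.5 had 785 and 719.9 in wild type, against 179 and 157 in meg-3 meg-4 and 18.9 and 16.6 in the triple mutant, and the triple mutant was below all 22 other libraries (log2 change −5.06 ± 0.12, limma adjusted p = 2.18e-16; between the mutants −2.93). In the MATH and BATH family, whose proteins also serve ubiquitin ligases, 10 of 33 were called lower and 4 higher. The higher count was 2 without either wild-type or either triple mutant library and 7 after quantile normalization. A number of these genes rose in the double mutant and not in the triple. The gene bath-1 had 218 and 226 in wild type, against 747 and 761 in meg-3 meg-4 and 114 and 129 in the triple mutant, and bath-24 had 761 and 757 in wild type, against 1978 and 1805 in meg-3 meg-4 and 493 and 412 in the triple mutant, both called in opposite directions, whereas bath-2 had 80.5 and 87 in wild type, against 249 and 226 in meg-3 meg-4 and 60.3 and 63.9 in the triple mutant and was back. In math-1 a loss was called in the triple mutant alone, with 336 and 363 in wild type, against 263 and 252 in meg-3 meg-4 and 81 and 85.1 in the triple mutant. Both double mutant libraries also lay below both wild-type libraries, without a call.

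Collagen genes had 7 of 21 called lower and 3 higher, and 10 of these 10 calls had the same direction in both mutants. The cuticle collagen genes col-111, with 304 and 249 in wild type, against 3.32 and 2.95 in meg-3 meg-4 and 8.1 and 8.67 in the triple mutant, and col-155, with 127 and 135 in wild type, against 31 and 24.5 in meg-3 meg-4 and 11.7 and 17.3 in the triple mutant, were among the lower ones. Nuclear hormone receptor genes had 10 of 52 lower and 2 higher, but 8 lower and 7 higher after quantile normalization and 13 and 2 with equal totals, so the balance depends on the scaling. The gene nhr-15 had 1717 and 1842 in wild type, against 654 and 609 in meg-3 meg-4 and 192 and 206 in the triple mutant, and nhr-236 had 101 and 102 in wild type, against 13.3 and 5.89 in meg-3 meg-4 and 3.6 and 7.1 in the triple mutant. A gain was seen for nhr-47, with 15.6 and 9.93 in wild type, against 9.96 and 13.7 in meg-3 meg-4 and 122 and 43.4 in the triple mutant, where the triple mutant libraries differed widely but lay above all others. Chemoreceptor genes had 7 of 31 lower and 2 higher, and C-type lectin genes 2 of 16 lower and 3 higher. For collagen genes 1 to 3 higher calls and 6 lower calls were left without single libraries, for chemoreceptor genes 0 to 2 and 5 to 7, and for C-type lectin genes 1 to 2 and 2. After quantile normalization, the higher calls of chemoreceptor genes numbered 4. In meg-3 meg-4, 16 of the 52 nuclear hormone receptor genes were called lower and 4 higher. The counts there were 10 and 1 for chemoreceptor genes, and 4 and 2 for C-type lectin genes.

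Histone genes had 13 of 50 called higher and 4 lower. The count of higher calls was 5 with equal totals and 20 after quantile normalization, so it depends on the scaling. It also fell when any library of wild type or of the triple mutant was left out, which leaves that group with a single library. Linker histone genes differed among themselves. The gene hil-8 had 754 and 754 in wild type, against 774 and 717 in meg-3 meg-4 and 139.6 and 109.6 in the triple mutant, a loss of the triple mutant alone (log2 change −2.56 ± 0.14, limma adjusted p = 3.64e-11). The linker histone genes his-24 and hil-3 were called lower too (−0.78 and −0.76), with 4823 and 4977 in wild type, against 5792 and 6133 in meg-3 meg-4 and 2934 and 2762 in the triple mutant for his-24. In contrast hil-5 rose from 156 and 148 to 269 and 299 (0.88). Among core histone genes his-63 rose from 16.8 and 22.8 to 45.9 and 54.4, above all 22 other libraries. Core histone genes are near-identical copies, and the counting of shared reads is not known for them either.

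Ribosomal RNA and ribosomal protein genes had calls between the mutants. A pair of copies of rrn-1.1 rose, one having 319 and 299 in wild type, against 1101 and 989.8 in meg-3 meg-4 and 711 and 692 in the triple mutant, and were called lower in the triple mutant than in the double (−0.57, limma adjusted p = 0.0199). For rrn-3.1, with 2728 and 2462 in wild type, against 6046 and 5943 in meg-3 meg-4 and 3914 and 3868 in the triple mutant, the change of 0.59 ± 0.21, limma adjusted p = 0.0565, was not called, but was under 5 of the settings tried (adjusted p from 2.84e-04 to 0.27). Of 77 ribosomal protein genes 1 was called higher and 0 lower, against 0 and 15 in meg-3 meg-4. Between the mutants 9 were called higher in the triple mutant than in the double. Among all features, 17.6% were called lower in meg-3 meg-4 and 10.6% higher in the triple mutant than in the double. The counts of 15 and 9 lie near these shares. For rps-4 the values were 123 and 124 in wild type, against 32.1 and 42.2 in meg-3 meg-4 and 113 and 109.6 in the triple mutant. The single higher call, rpl-7A, was lost without wild-type replicate 2 or triple mutant replicate 2 and with equal totals (adjusted p from 0.00184 to 0.19). Of 53 snoRNA genes 8 were called higher and 2 lower, the higher count being 4 to 7 without single libraries, and the counts 6 and 4 with equal totals and 12 and 3 after quantile normalization. T26A8.6 rose from 34.1 and 33.3 to 156 and 133, whereas T21F2.3 fell from 1313 and 1398 to 435 and 502, both beyond all 22 other libraries. In meg-3 meg-4, 16 of the 53 snoRNA genes were called higher (30.2%) and 1 lower (1.89%), against 8.28% and 17.6% of all features. Between the mutants 13 were lower in the triple mutant and 2 higher, against 8.63% and 10.6% of all features.

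Long intergenic RNA genes had 5 of 42 called higher and 4 lower, 2 to 5 and 3 to 4 without single libraries and 2 and 4 with equal totals. The higher count of 2 came without wild-type replicate 1 or triple mutant replicate 1. The most covered of those called was linc-29, with 7767 and 8001 in wild type, against 11929.6 and 11971 in meg-3 meg-4 and 2991 and 3019 in the triple mutant, above wild type in the double mutant and below it in the triple. Antisense to 90 measured piRNA genes, 4 were higher and 5 lower, with 2 to 4 and 3 to 5 without single libraries. The feature 21ur-11360 had 77 and 104 in wild type, against 58.6 and 68.7 in meg-3 meg-4 and 25.2 and 25.2 in the triple mutant, and 21ur-10235 had 140.1 and 129 in wild type, against 380.54 and 212 in meg-3 meg-4 and 516 and 405 in the triple mutant. The reads lie opposite the piRNAs, which were not measured.

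Genes that mark tissues were examined as well. Antisense small RNAs on a gene do not measure its messenger RNA, so these values cannot give the makeup of the samples. Of 33 mitotic and meiotic germline genes 3 were called higher and 0 lower, with a summed level of 7012 and 6884 in wild type and 7634 and 7827 in the triple mutant. Of 21 oocyte and eggshell genes 5 were higher and 0 lower, with 5997 and 5816 against 6733 and 6975. With equal totals 0 of either list were called, and without single libraries 0 to 3 of each. Of 7 major sperm protein genes 0 were called in either direction, and of 6 other sperm genes 0 were higher and 2 lower. The gene spe-41, a sperm calcium channel gene, had 90.3 and 87 in wild type, against 19.9 and 28.5 in meg-3 meg-4 and 17.1 and 14.2 in the triple mutant, low in both mutants. The part of germline or gamete content in the results was not tested.

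Of 6 intestine genes 0 were called, of 7 muscle genes 0 were higher and 1 lower, and of 10 neuron genes 0 were higher and 1 lower, against 5 of 10 lower in meg-3 meg-4. The presynaptic gene rimb-1 had 232 and 215 in wild type, against 1.11 and 1.96 in meg-3 meg-4 and 2.7 and 0 in the triple mutant, so the loss stayed in the triple mutant (log2 change −5.20 ± 0.32, limma adjusted p = 1.88e-10). The presynaptic gene unc-10 had 356 and 409 in wild type, against 38.7 and 32.4 in meg-3 meg-4 and 278 and 263 in the triple mutant, and was back in the triple mutant (−0.49 against wild type, limma adjusted p = 0.354). A pair of genes for parts of the same synaptic machinery was therefore placed in different classes.

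Losses were most frequent on chromosome X. There 191 of 832 features were called lower in the triple mutant (23.0%) and 19 higher (2.28%). On the autosomes the lower share ran from 8.68% on chromosome III to 14.8% on chromosome V, and the higher share from 4.87% to 6.78%. In meg-3 meg-4 24.3% of X-linked features were lower and 15.2% to 19.1% of autosomal ones. The median change in the triple mutant was −0.13 on X. By level, features with over 1000 normalized counts in wild type were called most often, with 41 of 221 higher and 70 lower. Of 1175 features under 10, 102 were higher and 12 lower, and a loss there leaves little to measure. Those under 10 also passed the filter only with higher values in other libraries, which can include the triple mutant. The excess of gains among them is therefore in part built in.

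**Figure D5:**
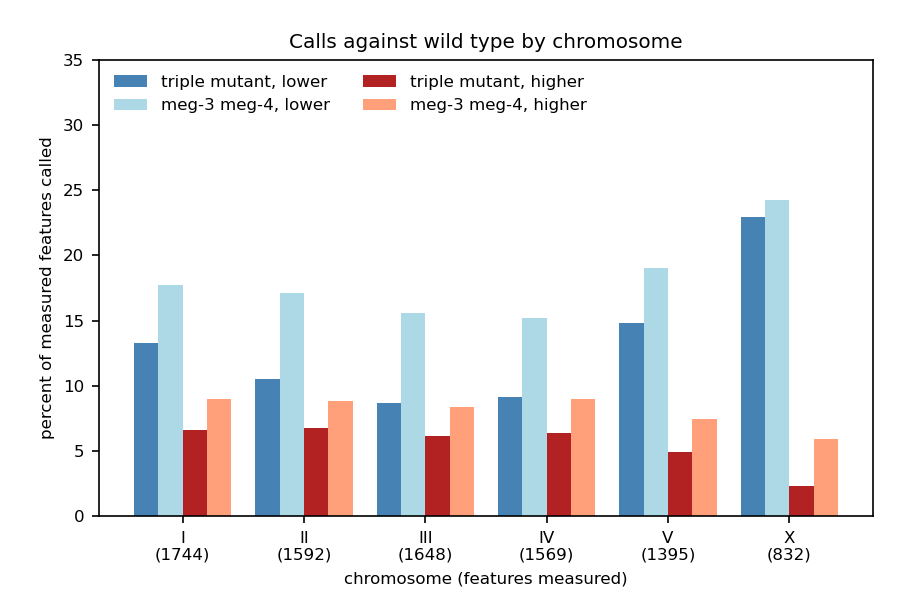
Percent of measured features on each chromosome (number in brackets) called lower (blue) or higher (red) against wild type in the hrde-1; meg-3 meg-4 mutant (dark bars) and in the meg-3 meg-4 mutant (light bars). Chromosome X has the tallest dark blue bar (23.0%) and the shortest dark red bar (2.28%).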

How the data were processed

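Small RNAs of 15 to 30 nucleotides from whole animals had been treated so that RNAs with a 5′ triphosphate could be cloned, per the labels' protocols. The deposited table holds 1 signal value per feature and library, made by the authors with cutadapt, Bowtie, featureCounts and DESeq2, per the submitters' processing notes. Their versions, the genome build, the annotation, the strand setting and the treatment of reads that match several places were not given in the sources used here. Multiplied by 1 factor per library, 100% of the values above 0 gave whole reads (tolerance 0.01), and these factors were those of DESeq2's median-of-ratios method. Of 46726 identifiers, 46364 matched Ensembl release 115 (WBcel235), which gave symbols, biotypes and chromosomes, and 362 did not.

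Features with 10 or more normalized counts in at least 2 of 24 libraries entered limma 3.58.1 under R 4.3.3 as log2(normalized count + 5), with an intensity trend. A single fit held all 12 groups of 2 libraries, with 12 residual degrees of freedom. Tests were two-sided, with Benjamini-Hochberg adjustment over 8869 features at 0.05. The added 5 understates the changes of weakly covered features. The script was tested on simulated data. edgeR 4.0.16, run on the recovered reads as an alternative, called 811 features higher and 1289 lower, 2100 in all, and DESeq2 1.42.0 was another. The groups are labelled biological replicates with nothing on separate cultures, so the p-values cover only the spread between these libraries. Floors of 3 reads cover counting error only, because PCR copies of a molecule are not independent.

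Named features are the 10 called ones with the largest change in each direction, 6 or 8 per direction of each class (mean of at least 50 normalized counts, no overlap between the groups compared), for each gene list at most 4 members that were called, and always hrde-1, meg-3, meg-4, rde-11 and sid-1. Others are said to be chosen after their values were seen. The comparison, classes and lists were chosen with earlier results of these data known. Sequences were not used here.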

Additional observations from a re-analysis of the deposited data

How the results depend on the processing

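Of the features called in the triple mutant, none turned direction under 17 other settings. The number called higher, 517, moved by over 1.5 times in 7 of these. It was 939 after quantile normalization, 841 with the 3 genotypes alone in the fit and 811 with edgeR on recovered reads, and 316 to 331 without any 1 of the wild-type or triple mutant libraries. Leaving out single libraries gave 316 to 504 higher and 855 to 1091 lower features, 1177 to 1595 in all, against 1537 to 2207 in meg-3 meg-4 and 1170 to 1610 between the mutants. The features called the same way in both mutants then numbered 632 to 758, those of the triple mutant alone 251 to 332, and those back towards wild type 418 to 554, against 689; the lowest of these came without meg-3 meg-4 replicate 1, and 456 came without its replicate 2. Where a group was left with 1 library, that library was assumed to vary like the other groups. With the replicate block 564 features were higher and 1147 lower. Differences between replicates 2 and 1 correlated at 0.08 between wild type and triple mutant and 0.25 between meg-3 meg-4 and triple mutant. Between wild type and meg-3 meg-4 they correlated at 0.11, each over 4574 features. The main fit did not pair the libraries by number. The share of mir-71 and mir-80 reads was higher in replicate 1 than in replicate 2 in every group but descendant F4. Beyond the replicate block, a shared effect of the replicate number was not tested. Of the values of 132 named results under these settings, 2105 kept their call or lack of one, 113 lost a call, 10 gained one and 0 changed sign while called. The cause of these shifts was not tested. With 2 libraries per group, single features rest on the spread pooled over all 12 groups, and a feature at 1 read lies near 0.8 normalized counts in the triple mutant.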
